A study of Mus musculus with 9 samples.

Results

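RNA of mouse podocytes collected 9 days after ADR was compared with that of podocytes from mice given PBS, with 3 libraries in each group. The comparison covers all 9336 genes that reached 1 FPKM in at least 3 of these 6 libraries, of 23309 gene symbols in the table. FPKM is the number of sequenced fragments scaled to the length of the transcript and to the size of the library. All mice carried the mTmG reporter and a podocyte Cre, had the wildtype genotype and were 7-8 weeks old. In such mice the Cre recombinase switches cells from a red to a green fluorescent reporter, and RNA was taken from the GFP-positive cells. The study also holds 3 libraries from day 14 after ADR, which enter the estimate of the spread and whose values are given for a few genes. Whether replicates are separate mice is not stated in the labels, so that p-values measure the spread between these libraries, which may be technical.

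Podocytes are the epithelial cells that cover the glomerular capillaries, and their interlocking foot processes, joined by the slit diaphragm, form the outer layer of the kidney filter. They scarcely divide in the adult, and their identity is kept by a small set of transcription factors that includes WT1, LMX1B and FOXC2. The labels give the treatment as ADR only. In work on podocytes this usually stands for Adriamycin (doxorubicin), an anthracycline that poisons topoisomerase II and is widely used to injure podocytes in mice. In general, broken DNA stabilises the factor p53, which switches on genes that halt the cell cycle, repair DNA or start cell death.

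The libraries differed among themselves in ways that bear on every comparison. Between 8988 and 9267 genes reached 1 FPKM per library with PBS and between 9114 and 10474 on day 9. The relative depth estimated from the lowest values (PBS replicate 2 near 1) was 0.993 to 1.08 with PBS and 0.79 to 0.883 on day 9. The number of reads behind a value is not known, so no counting interval can be given. The podocyte genes Synpo and Podxl were present in all 6 libraries at 26.9 FPKM or more. Day 9 replicate 3 had high levels of markers of other cells. Of 27 endothelial markers, 26 reached 1 FPKM in it, and their summed level was 4650 FPKM against 449 to 555 with PBS and 648 and 706 in the other day 9 libraries. Cldn5 alone made up most of the sum in those 5 libraries, at 439 to 548 FPKM with PBS and 609 and 696 on day 9. In day 9 replicate 3 Cldn5 was at 362 FPKM, so that the other endothelial markers rose far more than the sums show. Pecam1, for example, was at 272 FPKM there and at 0.423 to 1.07 with PBS. Mesangial and stromal markers summed to 722 FPKM in that library against 58.9 to 170 in the other 5, leukocyte markers to 1576 against 8.23 to 87.4, and distal tubule markers to 1043 against 142 to 243. Red cell markers were high in day 9 replicate 1 (583 FPKM) and replicate 3 (273 FPKM) and at most 32.8 elsewhere. Transcripts of the Y chromosome were present in all PBS libraries and in day 9 replicate 1 (53.6 to 59.3 FPKM summed) and near absent in the other day 9 libraries (1.06 and 0.018 FPKM). Xist, a transcript of female cells, was at 0.0718 to 0.139 FPKM with PBS, 0.0362 in day 9 replicate 1 and 2.15 and 2.12 in the other day 9 libraries. By these transcripts the day 9 libraries are of differing sex and the PBS libraries are not. Sex is thus partly confounded with ADR, and the main fit has no term for it. The deviations were uneven: PBS replicate 3 lay more than 2 log2 units below both other PBS libraries for 196 genes, and day 9 replicate 3 as far above both of its group for 272 genes. In bulk RNA a smaller share of cells of a type and less RNA per cell cannot be told apart.

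**Figure D1:**
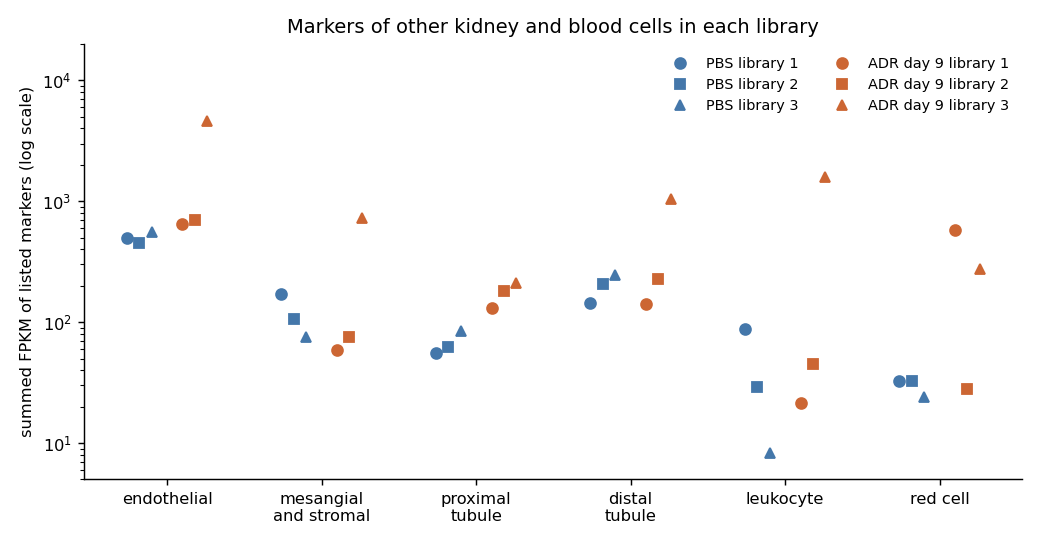
Summed FPKM of listed markers of other cell types (log axis) in the 3 PBS libraries (blue) and the 3 ADR day 9 libraries (orange), with the symbol giving the replicate number. Day 9 replicate 3 stands above the other 5 libraries for endothelial (4650 FPKM), mesangial and stromal, distal tubule and leukocyte markers, and day 9 replicates 1 and 3 for red cell markers. Outside day 9 replicate 3, Cldn5 alone made up most of the endothelial sum.

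No gene passed the test between day 9 and PBS. With limma on log2(FPKM + 1) and all 9 libraries in the fit, 0 of 9336 genes (0%) had an adjusted p under 0.05, and the smallest adjusted p was 0.999872. At an unadjusted p under 0.05 stood 309 genes (3.31%), of which 188 (2.01%) were higher and 121 (1.3%) lower on day 9. The values of all 3 day 9 libraries lay above those of all 3 PBS libraries for 621 genes (6.65%) and below them for 616 genes (6.6%), together 1237 genes (13.2%). These shares, over all genes tested, are the background for the counts given for gene groups in the rest of the text. A log2 change here is the difference of group means of log2(FPKM + 1), relative to the median of all genes tested, and its error is the standard error (SE) from limma. It exceeded 1 in size for 630 genes, 405 higher and 225 lower. The median SE was 0.34, and the median SD between libraries was 0.23 with PBS, 0.28 on day 9 and 0.51 on day 14. The SE draws on the day 14 libraries too and can be wider than the spread of the libraries compared. In day 14 replicate 1 proximal and distal tubule markers summed to 6033 and 14664 FPKM, and its relative depth was 0.24. Libraries of different groups were at times more alike than libraries of the same group: the rank correlation across genes was 0.892 to 0.965 within PBS, 0.871 to 0.953 within day 9 and 0.818 to 0.976 between them, where the genes are not independent.

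When the day 14 libraries were left out of the fit, the median SE was 0.24, and 1 gene (0.0107%) passed with an adjusted p of 0.000291 by limma. At an unadjusted p under 0.05 there were then 632 genes (6.77%), 281 higher (3.01%) and 351 lower (3.76%). The gene that passed was Mir3061, a microRNA gene. Its values were 30.03, 32.6 and 30.1 FPKM with PBS and 0 in each of the 3 day 9 libraries. On day 14 it was listed at 70.8 FPKM in replicate 2 and at 0 in the other two. Multiplied by the relative depth of the library, the values above 0 were 32.4, 32.4 and 32.2 with PBS and 32.3 in the day 14 library, which is what the same number of fragments in each of these 4 libraries would give for this 91-base gene. That number is not known, and a listed 0 can be a failed estimate. In the GRCm38 annotation (GENCODE M21), Mir3061 at chr11:52126746-52126836 lies on the same strand within exon 7, in the untranslated part, of Ppp2ca, which encodes a catalytic subunit of protein phosphatase 2A. It also lies within exon 1 of the antisense gene 9430098F02Rik. Reads of these genes cannot be told apart from those of the microRNA here. Ppp2ca itself was at 86.98, 40.6 and 2.70 FPKM with PBS and 79.8, 72.3 and 66.5 on day 9, where the groups overlapped and PBS replicate 3 was the lowest. The mature forms in RefSeq (GRCm38.p6) are shown because this was the gene that passed, 5′ to 3′, with the seed (bases 2 to 8) in capitals, and the 2 seeds differ.
mmu-miR-3061-5p: cAGUGGGCcgugaaagguagcc
mmu-miR-3061-3p: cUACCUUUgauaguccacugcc

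**Figure D2:**
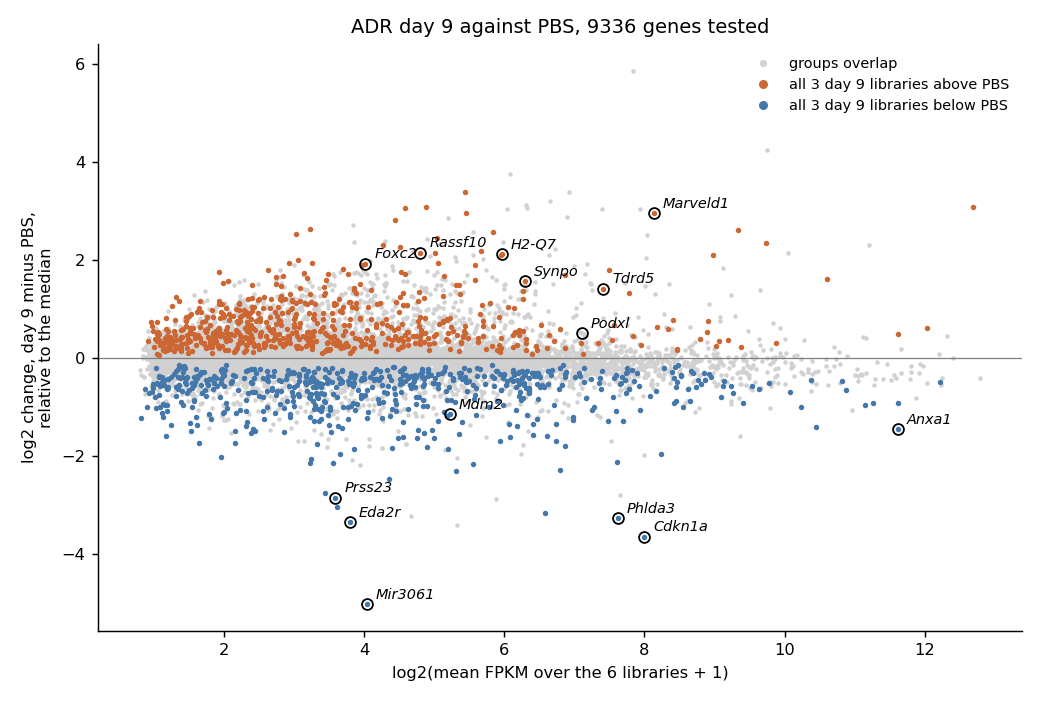
Log2 change between day 9 and PBS against the log2 mean level over the 6 libraries, 1 point per gene tested. Orange and blue points are the 621 and 616 genes whose day 9 libraries all lie above or below all PBS libraries, and genes described in the text are circled. Mir3061, Cdkn1a, Eda2r, Phlda3 and Prss23 are at the lower edge.

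Apart from the sex-linked transcripts, the targets of p53 were the list with the lowest median on day 9, and p21, MDM2 and cyclin G1 were among the genes that lay below PBS. Of 32 listed genes, 25 were tested, 0 passed limma, and 11 (44% against 6.6% of all genes) were below PBS in every day 9 library and 0 above. The median log2 change over the 25 genes was -1.08, with 22 below the median gene, as are 50% of all genes by construction. Each day 9 library taken alone had a median below those of all PBS libraries, at -1.77 in replicate 1, -0.84 in replicate 2 and -0.71 in replicate 3 against -0.28 to 0.17 with PBS. With each of the 6 libraries left out in turn, 11 to 16 of the 25 genes lay below PBS, while the share over all genes was 8.65% to 14.5%. At an unadjusted p under 0.05 the fit had 5 of the 25 genes lower and 0 higher, and with only the 6 libraries in the fit 12 lower and 0 higher. Of these genes Psrc1 had entered the comparison through the PBS libraries alone, being under 1 FPKM in all day 9 libraries. Its place below PBS was thus fixed.

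Sequences upstream of these genes were read from the RefSeq promoter table (GRCm38.p6, matched by symbol), since p53 acts by binding DNA near the genes it controls. The p53 half-site, a 10-base motif searched on both strands, was present in the 250 bases before a start of 10 of the 25 listed p53 targets in that table (40%), against 8.2% of all 27025 genes in it. The shared genes of the list and the table need not be the 25 genes tested. A list of p53 targets is apt to hold such sites by its choice, so the share says nothing about day 9. Cdkn1a, Mdm2, Ccng1 and Aen are shown, with the matched bases in capitals. The match is a description of the letters and not evidence of binding. Cdkn1a has 2 starts in the table, of which 1 has matches, on the + strand at chr17:29090729-29090978, beginning 73 and 51 bases before the start. Mdm2 is on the - strand at chr10:117710759-117711008, with the match 186 bases before the start, and Ccng1 on the - strand at chr11:40755287-40755536, with the match 185 bases before it. Aen is on the + strand at chr7:78895808-78896057, with the match 121 bases before 1 of its 2 starts.
Cdkn1a: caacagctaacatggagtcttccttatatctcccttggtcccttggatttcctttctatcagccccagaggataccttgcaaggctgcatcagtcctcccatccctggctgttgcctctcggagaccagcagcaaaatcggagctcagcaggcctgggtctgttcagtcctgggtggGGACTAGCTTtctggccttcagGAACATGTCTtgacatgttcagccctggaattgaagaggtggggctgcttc
Mdm2: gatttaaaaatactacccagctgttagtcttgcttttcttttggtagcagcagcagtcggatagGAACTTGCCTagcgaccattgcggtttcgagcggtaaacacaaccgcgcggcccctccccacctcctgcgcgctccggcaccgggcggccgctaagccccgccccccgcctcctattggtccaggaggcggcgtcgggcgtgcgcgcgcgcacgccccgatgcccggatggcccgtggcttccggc
Ccng1: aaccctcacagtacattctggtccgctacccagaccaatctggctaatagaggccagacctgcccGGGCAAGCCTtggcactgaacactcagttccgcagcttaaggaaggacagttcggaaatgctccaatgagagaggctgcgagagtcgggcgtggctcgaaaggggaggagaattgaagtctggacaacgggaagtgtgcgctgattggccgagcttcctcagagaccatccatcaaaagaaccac
Aen: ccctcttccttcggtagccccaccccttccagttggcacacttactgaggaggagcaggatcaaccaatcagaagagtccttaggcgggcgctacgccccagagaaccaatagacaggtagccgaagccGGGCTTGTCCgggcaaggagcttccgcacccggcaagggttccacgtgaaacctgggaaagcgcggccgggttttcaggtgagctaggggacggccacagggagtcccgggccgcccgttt

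Cdkn1a encodes p21, the inhibitor of cyclin-dependent kinases through which p53 halts the cell cycle. Its level was 292, 456 and 570.4 FPKM in the PBS libraries and 3.27, 135 and 69.99 FPKM in the day 9 libraries. All day 9 values were below all PBS values, and replicate 1 was far below the other two. The log2 change was -3.65 ± 1.42 SE, and -2.12 without day 9 replicate 1. On day 14 it was at 76.8, 681 and 2159 FPKM, a range that includes all of the PBS values. Eda2r, a receptor of the tumour necrosis factor family, was at 22.6, 24.4 and 23.4 FPKM with PBS and 0, 6.29 and 1.02 on day 9 (-3.35 ± 1.27 SE). Phlda3, a repressor of Akt signalling, was at 266, 316 and 402 FPKM with PBS and 4.70, 138 and 49.4 on day 9 (-3.28 ± 1.41 SE, and -1.96 without day 9 replicate 1). In both genes replicate 1 was again the lowest of the day 9 libraries and replicate 2 the highest.

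Mdm2, the ubiquitin ligase that degrades p53 and is itself switched on by it, was nearly constant with PBS at 49.6, 50.5 and 49.2 FPKM. On day 9 it was at 16.9, 25.9 and 25.8 FPKM, with a mean of 0.459 times the PBS mean, and its log2 change was -1.15 ± 0.66 SE. With only the 6 libraries in the fit its unadjusted p was 0.00115 by limma, against 0.126 with all 9, where day 14 values of 12.3, 48.4 and 122 FPKM widen the spread. Ccng1, a cyclin induced by p53, was at 150.3, 296 and 498 FPKM with PBS and 55.2, 121 and 41.9 on day 9 (-2.12 ± 0.82 SE). Sesn2 (sestrin 2), which restrains mTORC1 under stress, was at 11.8, 18.9 and 25.5 FPKM against 1.59, 6.58 and 5.31 (-1.95 ± 0.50 SE). For each of the 3 genes the groups did not overlap.

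Other members below PBS in all 3 libraries were Aen, an exonuclease of apoptosis, at 130.5, 176 and 218 FPKM with PBS and 34.8, 100.5 and 34.2 on day 9 (-1.81 ± 0.80 SE), and Polk, a translesion DNA polymerase, at 9.04, 12.7 and 15.9 against 3.90, 5.87 and 7.39 (-1.05 ± 0.54 SE). The death receptor Tnfrsf10b had 2.76, 5.86 and 10.5 FPKM with PBS and 1.21, 1.58 and 2.04 on day 9, and the pore-forming Bax 2.07, 1.62 and 1.55 against 0.533, 1.12 and 0.840. Day 9 replicate 2 was the highest of its group for Aen and Bax. The gene of p53 itself, Trp53, overlapped between groups, at 91.5, 74.9 and 73.4 FPKM with PBS and 47.1, 88.8 and 69.03 on day 9 (-0.29 ± 0.37 SE, and -0.53 without day 9 replicate 2, -0.17 without PBS replicate 1 and -0.03 without day 9 replicate 1). Among 18 tested DNA damage and repair genes of 28 listed, 0 lay fully above and 0 fully below PBS, with a median of 0.11 and changes between -0.38 and 0.35. Without PBS replicate 3 and without day 9 replicate 2, 4 of the 18 lay above PBS (22.2% against 12.1% and 16.7% of all genes), and without day 9 replicate 3 it was 3 (16.7% against 12.5%).

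**Figure D3:**
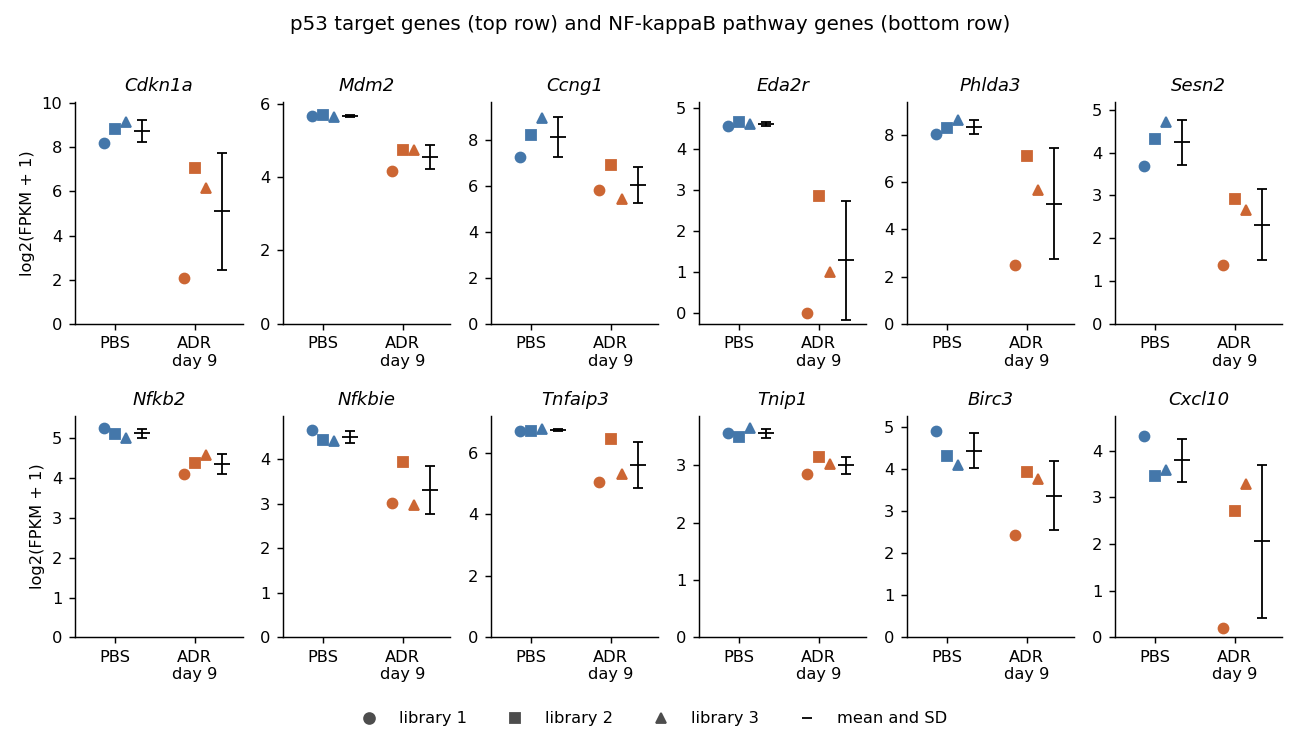
Log2(FPKM + 1) in each of the 3 PBS libraries (blue) and 3 ADR day 9 libraries (orange) for 6 p53 targets and 6 genes of the NF-kappaB pathway, with the group mean and SD in black. The groups do not overlap in any of the 12 panels, and day 9 replicate 1 is the lowest of all for Cdkn1a, Mdm2, Eda2r, Phlda3, Sesn2, Nfkb2, Tnfaip3, Tnip1, Birc3 and Cxcl10.

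Genes of the NF-kappaB pathway, which carries inflammatory signals to the nucleus and switches on its own inhibitors, included members that lay below PBS on day 9. Of 34 listed genes 17 were tested, and 7 lay below PBS in all 3 libraries and 0 above. The median log2 change was -0.44. It was lowest in replicate 1, with medians of -1.09, -0.27 and -0.11 in the 3 day 9 libraries and of -0.32 to 0.28 with PBS. With each of the 6 libraries left out the count below PBS was 7 to 10 of 17, against 8.65% to 14.5% of all genes, and the median was -0.28 without PBS replicate 1, -0.76 without PBS replicate 3 and -0.90 without day 9 replicate 3. The other 17 listed genes, mostly cytokines and chemokines such as Il6, Ccl2 and Tnf, were under the limit on low values and entered neither the counts nor the median. Some were high in day 9 replicate 3, the library with markers of other cells. Il1b was at 41.1 FPKM there, Cxcl2 at 10.4 and Tnf at 9.28, against at most 0.686, 0.594 and 0.363 with PBS. Il6 and Ccl2 were at 0 in that library.

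Nfkb2, the p100 subunit, was at 36.9, 33.4 and 30.9 FPKM with PBS and 16.01, 19.8 and 22.8 on day 9 (-0.80 ± 0.23 SE, unadjusted p = 0.00964 by limma). The inhibitor Nfkbie was at 24.1, 20.5 and 20.1 FPKM against 7.07, 14.2 and 6.89 (-1.22 ± 0.40 SE), and Tnfaip3 (A20), the ubiquitin-editing enzyme that shuts the pathway off, at 104, 104 and 109 against 32.5, 86.7 and 38.3 (-1.16 ± 0.48 SE). Day 9 replicate 2 was close to PBS for Tnfaip3 and the other two well below. Tnip1, a partner of A20, had 10.8, 10.2 and 11.5 FPKM with PBS and 6.19, 7.81 and 7.10 on day 9 (-0.59 ± 0.23 SE). Birc3 (cIAP2) had 28.7, 18.7 and 16.1 against 4.37, 14.1 and 12.4 (-1.10 ± 0.49 SE, and -0.61 without day 9 replicate 1) and the chemokine Cxcl10 19.01, 10.1 and 11.1 against 0.148, 5.55 and 8.73 (-1.76 ± 0.70 SE), which was -0.81 without day 9 replicate 1. For Nfkbia (IkappaB alpha), at 3033, 2744 and 1892 FPKM with PBS and 682, 2499 and 1089 on day 9, the groups overlapped.

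The kappaB motif, a 10-base pattern searched on both strands, was found in the 250 bases before a start of 11 of 25 genes of this list in the promoter table (44%) and in 4.46% of all genes of the table. These 25 genes are not limited to those tested. A list of genes of this pathway is apt to hold such motifs by its choice, so the share says nothing about day 9. Nfkbie and Tnip1 are shown as 2 genes whose groups did not overlap. Nfkbie is on the + strand at chr17:45555450-45555699 with the match 106 bases before the start. Tnip1 is on the - strand at chr11:54962941-54963190, where 3 matches overlap each other and begin 58 to 56 bases before the start.
Nfkbie: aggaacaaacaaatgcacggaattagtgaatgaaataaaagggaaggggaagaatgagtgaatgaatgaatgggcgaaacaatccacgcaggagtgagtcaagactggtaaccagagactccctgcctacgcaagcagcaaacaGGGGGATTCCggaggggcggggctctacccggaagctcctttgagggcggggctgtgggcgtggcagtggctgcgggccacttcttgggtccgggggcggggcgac
Tnip1: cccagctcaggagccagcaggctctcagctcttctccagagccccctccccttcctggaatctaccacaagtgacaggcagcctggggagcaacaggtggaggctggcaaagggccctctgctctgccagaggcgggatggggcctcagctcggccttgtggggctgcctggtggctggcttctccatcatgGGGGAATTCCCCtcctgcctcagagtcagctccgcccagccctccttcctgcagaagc

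Complement genes had 4 of 11 tested members (24 listed) below PBS in all 3 libraries (36.4% against 6.6% of all genes) and 0 above. With any 1 of the 6 libraries left out, 4 to 6 lay below (36.4% to 54.5%, against 8.65% to 14.5% of all genes). The median was -0.44, and it was -0.21 without PBS replicate 1 and -0.69 without PBS replicate 3. Masp1, a protease of the lectin pathway, was at 2.95, 4.97 and 3.52 FPKM with PBS and 0.400, 0.845 and 0.172 on day 9 (-1.74 ± 0.54 SE). It had passed the limit on low values only through the PBS libraries, so its place among the 4 was fixed. C1ra, a protease of the first complement component, was at 12.9, 15.7 and 10.1 FPKM against 2.03, 9.87 and 4.89 (-1.28 ± 0.52 SE, and -0.79 without day 9 replicate 1), and C1s, its partner, at 27.2, 32.3 and 15.7 against 4.23, 14.3 and 15.4 (-1.22 ± 0.56 SE, and -0.67 without day 9 replicate 1). Replicate 1 was the lowest day 9 library for both. Among 27 tested interferon-response genes, 1 lay above and 0 below PBS, with a median of -0.12. Single libraries moved this list: without day 9 replicate 2, 8 of the 27 lay below (29.6% against 13.3% of all genes) and the median was -0.51, while without day 9 replicate 1, 4 lay above (14.8% against 9% of all genes) and the median was 0.23. The median was 0.03 without PBS replicate 1, -0.42 without day 9 replicate 3, -0.29 without PBS replicate 2 and -0.22 without PBS replicate 3.

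The members of the slit diaphragm list that stood apart were higher on day 9. Of 24 listed genes 19 were tested, 0 passed, 5 lay above PBS in all 3 day 9 libraries and 0 below, with a median log2 change of 0.35 and 16 of 19 above the median gene. The medians of the single libraries were 0.76 and 0.43 in day 9 replicates 1 and 2 and -0.02 in replicate 3, the library with markers of other cells. Without that library 10 of the 19 lay above PBS, with 12.5% of all genes doing so, and with each of the other 5 left out 5 to 7, with 7.79% to 16.7% of all genes. The median was 0.58 without that library and 0.18 without day 9 replicate 1. Tdrd5, a member of the list that is not a known component of the slit diaphragm, was at 90.99, 72.6 and 97.4 FPKM with PBS and 367, 163 and 224 on day 9 (1.42 ± 0.34 SE). Crb2, a crumbs-family protein of the slit diaphragm, was at 3.15, 1.49 and 1.31 FPKM against 9.08, 5.13 and 4.19 (1.22 ± 0.37 SE), and the polarity protein Pard3 at 4.14, 3.88 and 1.77 against 7.70, 5.84 and 5.09 (0.76 ± 0.31 SE, and 0.46 without PBS replicate 3). None of the day 9 values of these 3 genes reached down to a PBS value. The kinase Fyn, which phosphorylates nephrin, had 184, 101 and 19.8 FPKM with PBS and 268, 243 and 267 on day 9. Its log2 change of 1.80 ± 0.68 SE was 0.87 without PBS replicate 3, the lowest library. Ddn (dendrin), a slit diaphragm component, was at 3.58, 4.62 and 3.47 FPKM with PBS and 12.6, 5.47 and 5.90 on day 9 (0.77 ± 0.54 SE, and 0.45 without day 9 replicate 1).

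Nephrin of the slit diaphragm and podocalyxin of the foot process surface overlapped between groups. Nphs1 (nephrin) was at 39.6, 49.01 and 70.4 FPKM with PBS and 99.2, 70.1 and 45.1 on day 9 (0.36 ± 0.34 SE), and Podxl (podocalyxin), the sialoprotein that keeps foot processes apart, at 87.4, 109 and 135 against 221, 119 and 151 (0.51 ± 0.32 SE, and 0.29 without day 9 replicate 1). Day 9 replicate 1 was the highest of the 6 libraries for both genes. The intervals are wide, from -0.40 to 1.13 on the log2 scale for Nphs1 at a confidence of 95%, and its change was 0.11 without day 9 replicate 1, 0.20 without PBS replicate 1, 0.56 without PBS replicate 3 and 0.67 without day 9 replicate 3.

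Among genes of the foot process cytoskeleton, synaptopodin was the one member that lay wholly above PBS. Of 26 tested members (30 listed), 1 lay above PBS in all 3 libraries (3.85% against 6.65% of all genes) and 5 below (19.2% against 6.6%). The median was -0.18. With any 1 of the 6 libraries left out, 6 or 7 lay below (23.1% to 26.9%, against 8.65% to 14.5% of all genes). Without day 9 replicate 3 the median was 0.0027 and 5 lay above (19.2% against 12.5% of all genes). Without PBS replicate 1 or 3 it was 3 above (11.5%, against 14.5% and 12.1% of all genes). The one above was Synpo, the actin-binding protein found in mature foot processes, with 52.2, 36.7 and 26.9 FPKM in the PBS libraries and 135, 101 and 113 FPKM on day 9. Every day 9 library was well above the highest PBS library. The log2 change was 1.57 ± 0.40 SE (95% confidence interval 0.68 to 2.47). On day 14 Synpo was at 25.05, 20.1 and 8.52 FPKM. Pdpn (podoplanin), a membrane protein of foot processes, lay below, at 317, 301 and 351 FPKM with PBS and 168, 231 and 102 on day 9 (-1.06 ± 0.62 SE). So did Tenc1 (tensin 2), at 169, 233 and 198 against 152, 143 and 102 (-0.63 ± 0.35 SE), and the intermediate filament gene Vim, at 747, 641 and 632 against 446, 553 and 247 (-0.80 ± 0.43 SE, and -0.45 without day 9 replicate 3). Replicate 3 was the lowest of the day 9 libraries for these 3 genes. Actn4 (alpha-actinin 4) overlapped, at 79.9, 83.001 and 99.1 FPKM with PBS and 104, 73.8 and 54.97 on day 9 (-0.24 ± 0.30 SE, and -0.45 without day 9 replicate 1 and -0.0018 without day 9 replicate 3).

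Transcription factors of podocytes had 4 of 22 tested members (25 listed) above PBS and 2 below, with a median of 0.23. Without day 9 replicate 3, 10 of the 22 lay above (45.5% against 12.5% of all genes), and without PBS replicate 1 it was 7 (31.8% against 14.5%). The median was 0.14 without PBS replicate 3, 0.43 without day 9 replicate 1 and 0.42 without day 9 replicate 3. Foxc2, a forkhead factor required for podocyte development, was at 11.9, 4.78 and 2.49 FPKM with PBS and 29.02, 23.1 and 20.1 on day 9 (1.93 ± 0.50 SE). Lmx1b, the nail-patella syndrome gene, was at 3.07, 2.64 and 0.729 FPKM against 4.58, 5.13 and 3.73 (0.86 ± 0.37 SE, and 0.45 without PBS replicate 3). Creb3l1, a membrane-bound factor of the endoplasmic reticulum, had 26.9, 17.8 and 5.37 FPKM with PBS and 80.3, 47.5 and 28.8 on day 9 (1.68 ± 0.57 SE, and 1.04 without PBS replicate 3). PBS replicate 3 was the lowest library for Foxc2, Lmx1b and Creb3l1. Tead3, a DNA-binding partner of YAP, lay below at 1.56, 4.34 and 1.83 FPKM against 0.769, 1.01 and 0.550 (-0.97 ± 0.30 SE, and -0.63 without PBS replicate 2), as did Nfia at 3.62, 5.75 and 7.84 against 2.45, 3.58 and 3.40 (-0.70 ± 0.33 SE). Wt1 was at 72.1, 74.3 and 59.9 FPKM with PBS and 87.5, 81.3 and 26.7 on day 9, where replicate 3 alone was low. Its log2 change was -0.28 ± 0.51 SE and turned to 0.28 without that library, and it was -0.55 without either of the other day 9 libraries.

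**Figure D4:**
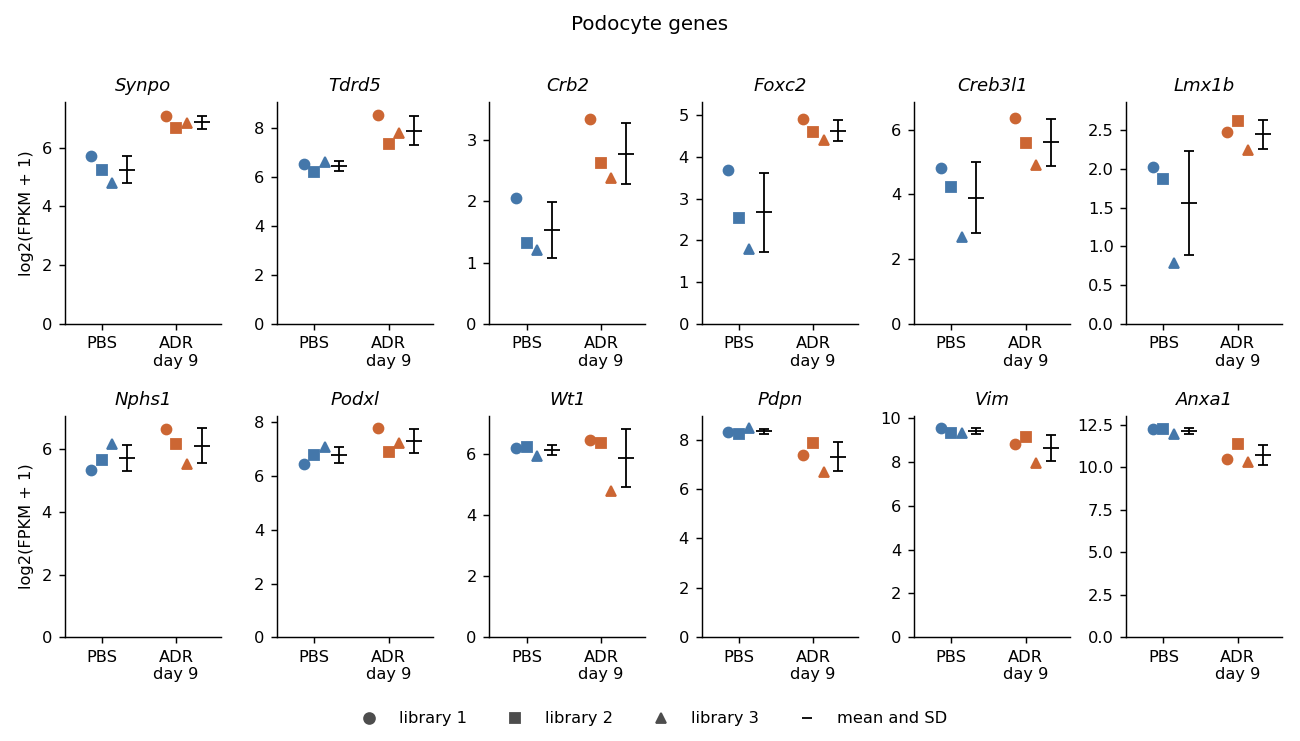
Log2(FPKM + 1) in each PBS library (blue) and each ADR day 9 library (orange) for 12 podocyte genes, with the group mean and SD in black. The day 9 libraries lie above all PBS libraries for Synpo, Tdrd5, Crb2, Foxc2, Creb3l1 and Lmx1b and below them for Pdpn, Vim and Anxa1, and the groups overlap for Nphs1, Podxl and Wt1.

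Genes of the basement membrane and its adhesion receptors had a median of 0.02, with 1 of 24 tested members (29 listed) above PBS and 2 below. Without 1 library the median was between -0.18 (PBS replicate 1) and 0.05, and 2 to 4 lay below (8.33% to 16.7%, against 8.65% to 14.5% of all genes). Those below were Ilk, the integrin-linked kinase, at 327, 255 and 217 FPKM with PBS and 175, 187 and 155 on day 9 (-0.64 ± 0.32 SE), and Pxn (paxillin) at 24.5, 32.9 and 30.4 against 18.3, 19.96 and 22.7 (-0.53 ± 0.23 SE). The member above was the integrin Itgb5, at 772, 361 and 42.9 FPKM with PBS and 2125, 979 and 829 on day 9 (2.35 ± 0.91 SE), and without the low PBS replicate 3 its change was 1.13.

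Secreted factors had 2 of 27 tested members (35 listed) above PBS and 1 below, with a median of -0.02. Without PBS replicate 3, 6 lay above (22.2% against 12.1% of all genes). Without day 9 replicate 2, 4 lay above (14.8% against 16.7%) and 5 below (18.5% against 13.3%). The median was between -0.18 and 0.01 with 1 library left out. Thbd (thrombomodulin), an anticoagulant receptor also made by endothelium, was at 6.52, 5.06 and 4.65 FPKM with PBS and 79.5, 9.65 and 152 on day 9 (2.96 ± 0.88 SE). Replicate 3, where endothelial markers were high, was the highest, and without it the change was 2.19. Plat (tissue plasminogen activator) was at 3045, 3044 and 3627 FPKM against 5645, 4035 and 5631 (0.61 ± 0.40 SE). Ctgf, a matricellular protein and target of YAP, lay below at 1197, 3069 and 1838 FPKM against 891, 852 and 507 (-1.41 ± 0.71 SE). For Vegfa, by which podocytes sustain the glomerular endothelium, the groups overlapped at 632, 405 and 285 FPKM with PBS and 1035, 898 and 509 on day 9 (0.87 ± 0.44 SE, and 0.57 without PBS replicate 3).

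Genes of matrix and wound repair included 5 of 21 tested members (37 listed) below PBS and 0 above, with a median of -0.48. Anxa1, an annexin with anti-inflammatory activity and among the most abundant transcripts of these cells, was at 4867, 4781 and 3919 FPKM with PBS and 1417, 2629.5 and 1261 on day 9 (-1.46 ± 0.62 SE). The collagen cross-linking oxidase Loxl1 was at 13.6, 20.3 and 29.1 FPKM against 2.19, 11.3 and 4.28 (-1.86 ± 0.55 SE), and Lox at 3.43, 11.1 and 3.89 against 0.313, 3.11 and 2.48 (-1.30 ± 0.59 SE, and -0.77 without day 9 replicate 1 and -0.83 without PBS replicate 2). Replicate 2 was the closest of the day 9 libraries to PBS for all 3 genes. The list's median in day 9 replicate 3 was 0.32, while it was -1.31 in replicate 1 and -0.21 in replicate 2. Without replicate 1 the list's median turned to 0.08, and it was -0.82 without replicate 3 and -0.26 without PBS replicate 1. When any 1 of the 6 libraries was left out, 5 to 7 members lay below PBS (23.8% to 33.3%, against 8.65% to 14.5% of all genes). Of 22 genes listed as markers of parietal cells, the epithelium that lines Bowman's capsule, 8 were tested and 2 lay below PBS. These were the tight junction gene Cldn1, at 10.2, 14.95 and 17.3 FPKM with PBS and 6.30, 7.27 and 6.38 on day 9 (-0.99 ± 0.32 SE), and the retinal dehydrogenase Aldh1a1, at 16.9, 29.7 and 12.96 against 0.436, 7.003 and 0.284 (-3.04 ± 1.27 SE). The list's median of 0.49 had the other sign, with day 9 libraries at -1.10, 0.09 and 2.22, the last in the library with markers of other cells, and it was -0.46 without that library, 0.27 without PBS replicate 3 and 1.06 without day 9 replicate 1.

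Genes of the oxidative stress response had 4 of 27 tested members below PBS and 1 above, with a median of -0.28. Without PBS replicate 3, 10 lay below (37% against 10.9% of all genes), and without day 9 replicate 2 or 3 it was 7 (25.9%, against 13.3% and 12.6%). The median was between -0.41 (without day 9 replicate 2) and -0.08 (without PBS replicate 1 or day 9 replicate 1) and was -0.09 without day 9 replicate 3. Txnrd1 (thioredoxin reductase), a target of NRF2, was at 52.1, 52.5 and 40.5 FPKM with PBS and 15.7, 31.1 and 19.3 on day 9 (-1.18 ± 0.43 SE). Hmox1 (heme oxygenase) was at 11.2, 12.1 and 10.5 against 6.04, 10.4 and 7.27 (-0.52 ± 0.57 SE, and -0.34 without day 9 replicate 1). The extracellular superoxide dismutase Sod3 lay above, at 2.47, 1.66 and 1.87 FPKM with PBS and 33.6, 5.93 and 5.81 on day 9 (1.95 ± 1.23 SE, and 1.19 without day 9 replicate 1). Its SE was 0.64 with only the 6 libraries in the fit. Among genes that handle or are hit by anthracyclines, 2 of 12 tested members (19 listed) lay above PBS, which were the topoisomerase Top2b, at 4.75, 4.34 and 2.36 FPKM with PBS and 5.53, 6.22 and 7.89 on day 9 (0.64 ± 0.29 SE, and 0.38 without PBS replicate 3), and the carbonyl reductase Cbr1, at 50.002, 37.1 and 39.5 against 73.2, 50.99 and 54.4 (0.45 ± 0.58 SE).

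The stress responses of the endoplasmic reticulum and of heat shock had medians of -0.02 and -0.01, with 2 of 23 and 0 of 23 tested members above PBS and 2 and 1 below. The heat shock median was 0.24 without day 9 replicate 2, 0.21 without PBS replicate 3, 0.11 without day 9 replicate 1 and -0.14 without PBS replicate 1. Without day 9 replicate 2, 6 of the first list and 5 of the second lay above (26.1% and 21.7% against 16.7% of all genes), and without day 9 replicate 1 it was 5 of the first (21.7% against 9%). Ddit3 (CHOP), the death-promoting factor of endoplasmic reticulum stress, was at 263, 279 and 298 FPKM with PBS and 59.5, 206 and 127 on day 9 (-1.29 ± 0.82 SE, and -0.80 without day 9 replicate 1). Of 31 immediate-early genes, which respond within minutes to handling and growth signals, 2 lay above PBS and 4 below, with a median of -0.26. Klf6 was at 97.8, 102 and 95.4 FPKM with PBS and 59.8, 73.4 and 56.1 on day 9 (-0.67 ± 0.27 SE), and Egr2 at 129, 123 and 107 against 19.2, 85.1 and 39.2 (-1.58 ± 0.77 SE, and -1.04 without day 9 replicate 1). Day 9 replicate 1 had a median of -0.83 for this list and replicates 2 and 3 of 0.03 and -0.11. Without day 9 replicate 2, 11 of the 31 lay below (35.5% against 13.3% of all genes), and without PBS replicate 3 it was 7 (22.6% against 10.9%). The median was between -0.46 and -0.01, the latter without day 9 replicate 1.

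**Figure D5:**
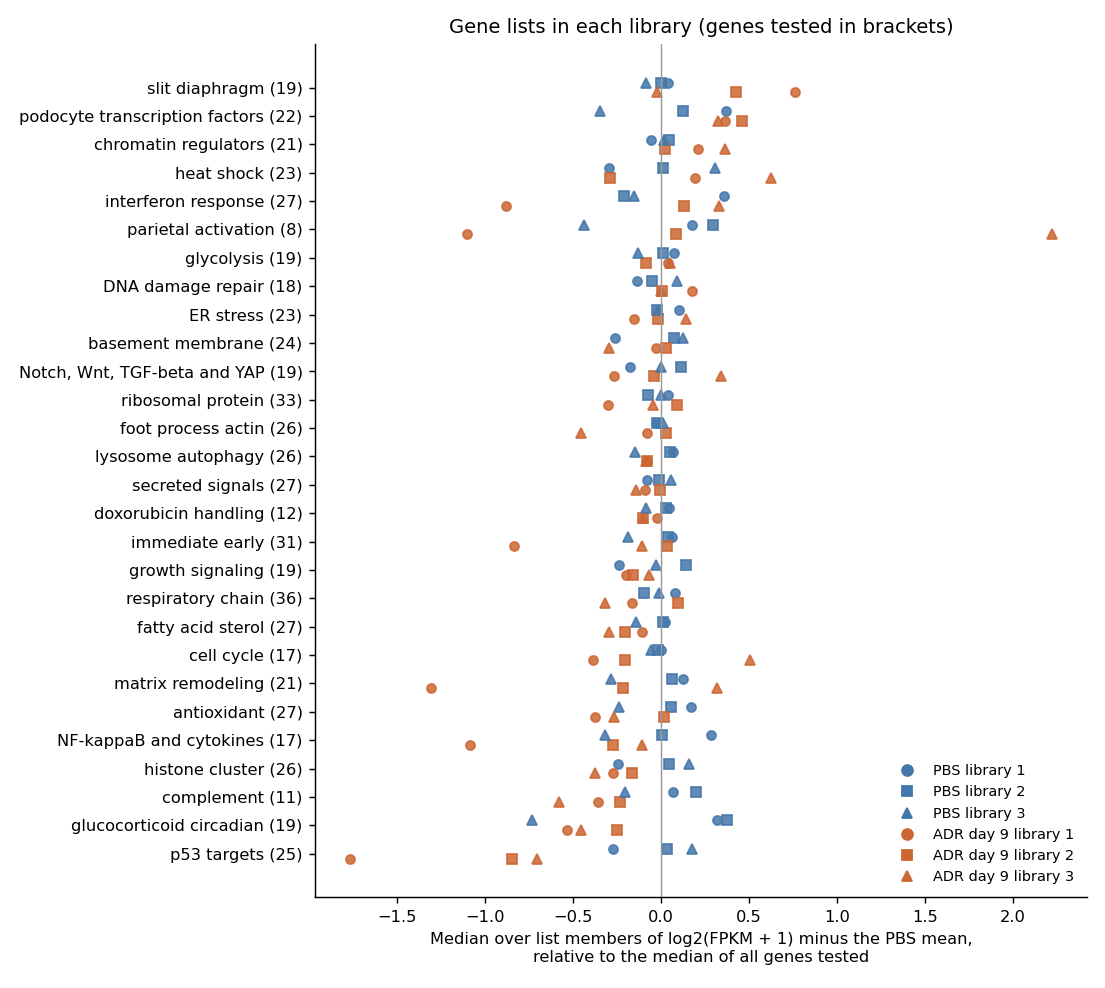
Median over the tested members of each gene list of log2(FPKM + 1) minus the PBS mean, relative to the median of all genes, in each PBS library (blue) and each ADR day 9 library (orange). The 3 day 9 libraries of the p53 targets (-1.77, -0.84 and -0.71) all lie below the PBS libraries of that list, and day 9 replicate 1 is the lowest for the NF-kappaB, matrix and immediate-early lists.

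Cell cycle, growth and metabolic lists had medians near that of all genes with all libraries in the fit. Cell cycle genes had a median of 0.05, with 1 of 17 tested members (35 listed) below PBS, the ribonucleotide reductase subunit Rrm1 at 40.9, 37.6 and 52.2 FPKM against 11.3, 28.3 and 11.2 (-1.46 ± 0.58 SE). Without day 9 replicate 3, the library with markers of other cells, 7 of the 17 lay below (41.2% against 12.6% of all genes) and the median was -0.29, while without day 9 replicate 1 it was 0.26. Mki67, Cdk1 and Plk1, genes of dividing cells, were among the members under the limit on low values. Medians were -0.13 for growth signalling (0 of 19 above and 1 below), -0.15 for the respiratory chain (2 of 36 above and 3 below) and -0.09 for ribosomal proteins (3 of 33 above and 3 below). They were -0.09 for glycolysis (1 of 19 above and 1 below), -0.19 for fatty acid and sterol metabolism (0 of 27 above and 2 below) and -0.13 for lysosome and autophagy (2 of 26 above and 4 below). Single libraries set some of these counts: without day 9 replicate 2, 13 respiratory chain genes lay below (36.1% against 13.3% of all genes) and 7 ribosomal protein genes (21.2%). Without PBS replicate 3, 10 genes of lysosome and autophagy lay below (38.5% against 10.9%), without day 9 replicate 3, 7 of fatty acid and sterol metabolism (25.9% against 12.6%), without day 9 replicate 1, 4 of glycolysis (21.1% against 9.99%), and without PBS replicate 1, 5 of growth signalling (26.3% against 14.5%). The medians of these 6 lists were between -0.27 and 0.03 with any 1 library left out. Changes over the 36 respiratory chain genes ranged from -0.65 to 0.27 on the log2 scale. Rps19, a ribosomal protein, was at 244, 227 and 307 FPKM with PBS and 105, 205 and 186 on day 9 (-0.72 ± 0.30 SE, and -0.41 without day 9 replicate 1), and the glycolytic enzyme Eno1 at 1203, 944 and 926 against 739, 754 and 704 (-0.51 ± 0.25 SE).

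Signalling and nuclear lists had between 1 and 5 members apart from PBS. Genes of Notch, Wnt, TGF-beta and YAP signalling had 2 of 19 tested members above and 2 below, with a median of 0.14, which was -0.19 without day 9 replicate 3 and 0.25 without day 9 replicate 1. Without PBS replicate 1, 5 lay below (26.3% against 14.5% of all genes). Ankrd1, a target of YAP, was at 23.5, 18.5 and 12.2 FPKM with PBS and 1.82, 6.17 and 2.84 on day 9 (-2.15 ± 0.80 SE). The inhibitor Smad6 was at 19.2, 17.2 and 1.55 against 31.8, 28.6 and 90.2 (2.16 ± 0.81 SE, and 1.17 without PBS replicate 3). Glucocorticoid and clock genes had a median of -0.62 with 1 of 19 below. Without PBS replicate 3, 8 of the 19 lay below (42.1% against 10.9% of all genes) and the median was -0.89, and the median was -0.20 without PBS replicate 1 and -0.31 without day 9 replicate 2. Core members overlapped between groups: Per1 was at 4.88, 17.1 and 24.1 FPKM with PBS and 6.15, 6.25 and 3.64 on day 9, Nr1d1 (REV-ERB alpha) at 19.4, 10.2 and 11.9 against 2.30, 10.9 and 2.14 (-1.56 ± 0.58 SE) and Npas2 at 0.524, 1.79 and 0.623 against 1.66, 3.69 and 5.30 (1.14 ± 0.46 SE). The hour of collection is not given in the sources used here. Chromatin regulators had 4 of 21 tested members above PBS and 0 below, with a median of 0.21. Without day 9 replicate 2, 10 lay above (47.6% against 16.7% of all genes), without PBS replicate 1 it was 7 (33.3% against 14.5%), and the median was 0.08 to 0.30 with 1 library left out, lowest without PBS replicate 1. Among the 4 members above was the deacetylase Hdac2 at 21.5, 16.2 and 11.97 FPKM against 27.4, 21.5 and 29.4 (0.62 ± 0.27 SE, and 0.40 without PBS replicate 3). Of 26 tested histone genes, whose near-identical copies make single values uncertain, 5 lay below PBS and 0 above, with a median of -0.27. Without PBS replicate 1, 13 lay below (50% against 14.5% of all genes) and the median was -0.52. Without day 9 replicate 2, 8 lay below (30.8% against 13.3%) with a median of -0.49.

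Beyond these groups, the genes with the widest gap between PBS and day 9 or the smallest p were taken by rank and so had to differ. Among those higher on day 9 was H2-Q7, a nonclassical histocompatibility gene, at 26.5, 23.5 and 14.5 FPKM with PBS and 147, 93.1 and 65.2 on day 9 (2.12 ± 0.47 SE, unadjusted p = 0.00144 by limma). Close copies in its family make its value uncertain, and the related H2-D1 varied from 319, 3659 and 164 FPKM with PBS to 1994, 5689 and 2256 on day 9, where the groups overlapped. Rassf10, of the Ras-association family, was at 13.96, 6.79 and 6.58 FPKM against 65.8, 32.5 and 36.2 (2.15 ± 0.51 SE). In both genes replicate 1 was the highest of the day 9 libraries.

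The membrane protein gene Marveld1 was at 179, 59.9 and 13.5 FPKM with PBS and 795, 328 and 302 on day 9 (2.95 ± 0.83 SE, and 1.99 without PBS replicate 3). Chd3, a remodeller of the NuRD complex, was at 5.48, 3.72 and 3.26 FPKM against the nearly equal 9.50, 9.56 and 9.47 on day 9 (1.02 ± 0.28 SE). Hipk2, a kinase that can phosphorylate p53, was at 13.96, 15.9 and 8.17 against 25.9, 24.7 and 36.96 (1.14 ± 0.35 SE). All 3 lay wholly above PBS. Sirpa, the receptor for CD47, was at 33.5, 30.6 and 35.1 FPKM with PBS and 89.9, 52.4 and 54.4 on day 9 (0.89 ± 0.30 SE). Gatm, the first enzyme of creatine synthesis and a marker of the proximal tubule, was at 35.2, 35.03 and 55.5 against 117, 97.2 and 119 (1.38 ± 1.09 SE). The listed proximal tubule markers other than Gatm summed to 20.8, 26.9 and 29.1 FPKM with PBS and 14.1, 83.4 and 90.4 on day 9. In replicate 1 they were thus below PBS, with Gatm above it, and their part in the Gatm values of replicates 2 and 3 was not tested.

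Among those lower on day 9, the serine protease Prss23 had 21.2, 21.3 and 16.3 FPKM in the PBS libraries and 0.953, 5.48 and 0.911 on day 9 (-2.86 ± 0.70 SE). Slc19a2, the thiamine transporter, was at 26.3, 36.1 and 35.5 FPKM against 2.10, 13.3 and 4.13 (-2.48 ± 0.86 SE), and Ctps, the CTP synthase, at 56.4, 58.8 and 57.9 against 18.4, 35.3 and 19.3 (-1.31 ± 0.29 SE, unadjusted p = 0.0016 by limma). For both the groups were apart, and the PBS libraries differed little from each other for Ctps. Lfng, a glycosyltransferase that modifies Notch, was at 35.3, 61.9 and 82.8 FPKM with PBS and 11.7, 22.5 and 26.2 on day 9 (-1.55 ± 0.39 SE). The sulfotransferase Sult1a1 was at 56.2, 133 and 90.4 against 29.6, 20.6 and 31.9 (-1.70 ± 0.80 SE), and the ubiquitin ligase subunit Fbxo2 at 31.9, 35.96 and 32.4 against 16.5, 14.5 and 4.65 (-1.61 ± 0.73 SE). Among the 10 lower genes with the smallest p were also 2 genes of DNA repair, the recombination gene Rad52 at 8.99, 7.52 and 9.38 FPKM with PBS and 4.26, 4.57 and 4.18 on day 9 (-0.88 ± 0.25 SE) and the excision repair gene Rad23b at 10.6, 14.9 and 17.8 against 5.76, 8.01 and 5.76 (-1.06 ± 0.29 SE). Neither belongs to the list of DNA damage and repair genes, of which 0 of 18 tested members lay below PBS, with a median of 0.11.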

How the data were processed

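Total RNA of GFP-positive podocytes was depleted of ribosomal RNA (RIN above 8) and sequenced, per the labels' protocols. The authors deposited FPKM values in 1 table of 23813 rows and 23309 symbols. Per the submitters' processing notes, Bowtie 0.12.7, Cufflinks and the mm9 build were used, with the role of each left unstated. How reads with several matches, strand and annotation were handled is not given in the sources used here. Of the symbols, 260 stood on more than 1 row, of which the one with the highest mean was used.

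Genes at 1 FPKM or above in 3 or more of the 6 libraries entered limma 3.58.1 (R 4.3.3) on log2(FPKM + 1), fitted with a trend of the variance. This scale understates the change of low genes. All 9 libraries entered the fit with the group as the only term. P-values are two-sided, with Benjamini-Hochberg adjustment over all 9336 genes and a threshold of 0.05. The procedure was tested on simulated data in which all genes and libraries had the same spread. The real libraries differed in spread, so that test cannot tell how many changes the fit would miss here. The labels do not say that a replicate number marks a shared animal, batch or day. Deviations of PBS and day 9 libraries with the same number correlated at -0.134, -0.0889 and -0.0905. Libraries with different numbers were not compared in this way, so these values cannot decide whether the numbers pair the samples. The relative depth of a library is the most frequent ratio of the value in PBS replicate 2 to the value in that library. It was taken over genes detected but under 0.3 FPKM in both.

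The members and the 35 gene lists were chosen with earlier results of these data known. Named are the 12 genes per direction with the widest gap between groups, the 10 with the smallest p (each with a mean of at least 5 FPKM), from each list as many as 4 members by p and 2 by level, and a set of podocyte and p53 genes. Of these the text prints a selection, and 2 named genes are not reported here. Aen, Polk, Bax, Psrc1, Tnfrsf10b, Tnfaip3, Birc3, Pdpn, Tenc1, Nfia, Ddit3, Hmox1, Ddn and Ppp2ca were named after their values were seen, most because their groups did not overlap. Promoters are the 250 bases before a RefSeq start, searched for motifs on both strands. Alternatives covered the pseudocount, filter, scaling and variance model, the libraries fitted, a replicate block, a term for Y-linked transcripts, and each library left out, where the list counts without a library were added after the data were seen.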

Additional observations from a re-analysis of the deposited data

How the results depend on the processing

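The count of genes past limma on day 9 was 0 with all 9 libraries in the fit and between 0 and 1 with 1 library left out, where the 1 gene, without ADR_D14 replicate 2, was Mir3061. It was 2 without the filter on low values, both under 0.5 FPKM in mean, where more genes are tested. With only PBS and ADR_D9 in the fit it was 1 (Mir3061). Alternatives of that fit chosen after seeing the data also gave 1 with a pseudocount of 0.1 and with a mean of at least 5 FPKM, and between 1 and 3 with 1 library left out. The 3 were Mir3061, Ddx3y and Eif2s3y without ADR_D9 replicate 1, of which the 2 Y-linked genes are list members, and Mir3061, Prss23 and Beta-s without ADR_D9 replicate 2. The cause was not tested. All other settings gave 0. Genes with an unadjusted p under 0.05 numbered 309, with 125 to 609 with 1 library left out (fewest without ADR_D9 replicate 1, most without ADR_D14 replicate 1) and 632 with only PBS and ADR_D9 in the fit. The split of higher and lower genes was 188 and 121, against 153 and 132 with median-of-ratios scaling, 195 and 185 with quantile normalization and 242 and 113 with a common total. A replicate block gave 381 such genes and 0 past limma (smallest adjusted p = 0.964). The median change of all genes moved between -0.033 and 0.056 over these scalings. Wt1 was between -0.55 and 0.28 with 1 library left out, with the sign changed to 0.28 without ADR_D9 replicate 3, also without the pair ADR_D9 3 and ADR_D14 1, and to 0.48 with a term for Y-linked transcripts. Depth was lower on day 9 and lowest on day 14, and low genes are the least certain.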

Other observations

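A few further genes stood apart between day 9 and PBS and belong to no gene list. Spon2 (spondin 2), a secreted matrix protein, was at 1.67, 0.462 and 0.538 FPKM with PBS and 25.9, 11.98 and 2.65 on day 9 (log2 change 2.54 ± 0.75 SE). Fbxo4, a ubiquitin ligase subunit, was at 12.3, 7.997 and 5.87 FPKM against 24.8, 17.7 and 14.1 (1.01 ± 0.31 SE), and Vat1, a vesicle membrane protein, lay lower at 5.48, 14.9 and 23.02 against 1.54, 3.995 and 1.44 (-2.14 ± 0.60 SE). These 3 genes were among those with the smallest p in their direction, and none passed limma over all genes.

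Aqp3 and Ldhb lay above PBS in every day 9 library. The water channel Aqp3, a marker of the collecting duct, was at 0.782, 3.39 and 1.55 FPKM with PBS and 7.05, 9.84 and 148 on day 9. Ldhb, a lactate dehydrogenase subunit and a member of the glycolysis list, was at 23.7, 16.7 and 12.97 FPKM against 37.3, 33.6 and 107. Both were highest in replicate 3, where the summed distal tubule markers (Aqp3 included) reached 1043 FPKM. In day 9 replicates 1 and 2 that sum was 142 and 227 FPKM, against 145 to 243 with PBS, where Krt7 and Egf made up most of it. In replicate 2 these genes lay within the PBS range. Aqp2 was at 15.5 FPKM there against 0.451 to 4.08 with PBS, and Fxyd4 at 26.0 against 0.371 to 7.33. The list's median relative to the PBS mean was 0.02, 1.11 and 3.11 log2 units in day 9 replicates 1 to 3, against -0.19 to 0.40 with PBS. The part of these markers' cells in the values of the day 9 libraries was not tested. Across 9284 genes with a matched transcript, the log2 change had a rank correlation of 0.0731 with the GC share and 0.0785 with the length of the longest transcript, where the genes are not independent.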
